A study of Homo sapiens with 9 samples.

Results

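SINE repeats were followed through RNA sequencing of HCT116, a long-established line of human colorectal cancer cells. The members are the 57 repeat subfamilies of class SINE in the deposited count table, chosen by the class written in each row's name, out of 1181 repeat subfamilies and 61832 rows in all. They divide into 4 AluJ, 17 AluS and 25 AluY subfamilies, 4 Alu monomers (FAM, FLAM_A, FLAM_C and FRAM), 1 row named Alu with no subfamily, 5 MIR subfamilies and AmnSINE1. All 57 passed the filter on low counts, and 49 averaged at least 1 CPM (counts per library scaled to a total of 1e+06). The 8 below that level are all AluY subfamilies.

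SINEs are short retrotransposons that do not code for protein and are copied by the machinery of LINE elements. Alu is the primate SINE and descends from the RNA of the signal recognition particle. AluJ is its oldest branch, AluS is intermediate, AluY holds the youngest copies, and the monomers are fossils from before a pair of units joined to form the Alu dimer. MIR is an older family, derived from tRNA and shared by mammals. A SINE can be transcribed by RNA polymerase III from its own promoter, but many copies lie in introns and untranslated ends of genes and are read as part of those transcripts. A subfamily row adds up its copies over the genome, so neither the copies nor the polymerase behind a count can be told from it.

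The labels place 9 libraries in 3 groups of 3, all with the genotype label WT. One group carried a short hairpin RNA against SLC6A3, the dopamine transporter gene, and received the solvent DMSO (shSLC6A3 DMSO). Another carried a control hairpin and received a treatment the labels abbreviate VXN (shCTRL VXN), and the remaining one carried the control hairpin and received DMSO (shCTRL DMSO). No label says that the libraries of a group came from separate cultures, so each p-value rests on a spread between libraries that may be technical only. Library totals ran from 30251364 to 60215785 counts, and 230315 to 390192 counts per library fell in SINE rows. SLC6A3 had 0 to 6 counts in every library, which gives no check of the knockdown. All 5 epithelial markers examined were expressed (EPCAM at 326.4 to 398.8 CPM and KRT8 at 1781 to 1974 CPM over the libraries), and the leukocyte marker PTPRC did not exceed 0.0661 CPM. The epithelial list of 5 summed to 4587 to 4766 CPM in V, 4149 to 4241 CPM in DAT and 4175 to 4340 CPM in D, the trios of libraries defined next, with V above both others. The authors' deposited table shCTRL V against shCTRL D called 2 of the 5 higher and 0 lower, beside 21.4% and 22.7% of all rows. They were CDH1 at log2 1.04 (SE 0.07, adjusted p 8.33e-54) and KRT19 at 0.36 (SE 0.06, adjusted p 1.07e-08) in the authors' deposited table. KRT18 at 0.16 (adjusted p 0.0516), KRT8 at 0.01 (adjusted p 0.938) and EPCAM at -0.18 (adjusted p 0.158) were not called in the authors' deposited table. The part of these genes in the SINE differences was not tested.

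The labels and the authors' tables do not describe the same groups of libraries. The authors deposited a table named shCTRL V against shCTRL D and another named shDAT D against shCTRL D, and all 38907 p-values of each were recovered within 1e-06 by DESeq2 from 3 trios that cut across the labels. The labelled groups recovered 0% and 1.41% of them. The trio V behind the first table is shSLC6A3 DMSO 1, shCTRL VXN 3 and shCTRL DMSO 3. The trio DAT behind the second is shCTRL VXN 1 with shCTRL DMSO 1 and 2. The trio D that both tables use as baseline is shSLC6A3 DMSO 2 and 3 with shCTRL VXN 2. Each library is called by its label below, and both groupings are reported under their own names. Which of them describes the treatment is not decided here. Each trio thus holds exactly 1 library labelled shCTRL VXN, and the sample numbers in the labels put those 3 libraries in a run of their own, apart from the other 6. The other 2 libraries of each trio were close to each other in their counts, with a chi-square per degree of freedom of 1.3 in V, 2.85 in DAT and 1.45 in D, against 7.34 or more for every other pair of the 9. Calls made without those 3 libraries rest on the spread within these close pairs. Calls made with the shCTRL VXN label as a term rest on that spread and on how the shCTRL VXN difference varied between trios.

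SINE rows together took 0.580% to 0.789% of all counts. In the trio V they held 0.702% in shSLC6A3 DMSO 1, 0.789% in shCTRL VXN 3 and 0.697% in shCTRL DMSO 3. In the trio DAT they held 0.761% in shCTRL VXN 1, 0.648% in shCTRL DMSO 1 and 0.682% in shCTRL DMSO 2. In the trio D they held 0.587% and 0.580% in shSLC6A3 DMSO 2 and 3 and 0.730% in shCTRL VXN 2. The shCTRL VXN library was the highest of its trio each time, and the lowest values of all were those of the shSLC6A3 DMSO pair in the trio D.

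Averaged by trio, the SINE share was 0.730% ± 0.0518 in V, 0.697% ± 0.0579 in DAT and 0.632% ± 0.0846 in D (SD, n = 3 each). V was 1.15 times and DAT 1.10 times D, and the libraries of the trios overlapped. As log2 ratios these were 0.21 and 0.14. The ratio of V over D was 0.32 without shCTRL VXN 2. The ratio of DAT over D was 0.07 without shCTRL VXN 1, 0.09 and 0.08 without shSLC6A3 DMSO 2 and 3 in turn, and 0.26 without shCTRL VXN 2. The rise of V over D depended on the denominator, since SINE rows made up 36.3% ± 0.788 of repeat counts in V, 39.8% ± 2.95 in DAT and 37.0% ± 4.05 in D. This puts V at 0.982 times D and DAT at 1.08 times D. Long terminal repeat (LTR) rows were 1.30 times D in V and 0.810 times D in DAT. Grouped by label, the share was 0.623% ± 0.0687 in shSLC6A3 DMSO, 0.760% ± 0.0299 in shCTRL VXN and 0.676% ± 0.025 in shCTRL DMSO (SD, n = 3 each). The shCTRL VXN libraries lay above every shCTRL DMSO library, whereas shSLC6A3 DMSO and shCTRL DMSO overlapped.

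**Figure D1:**
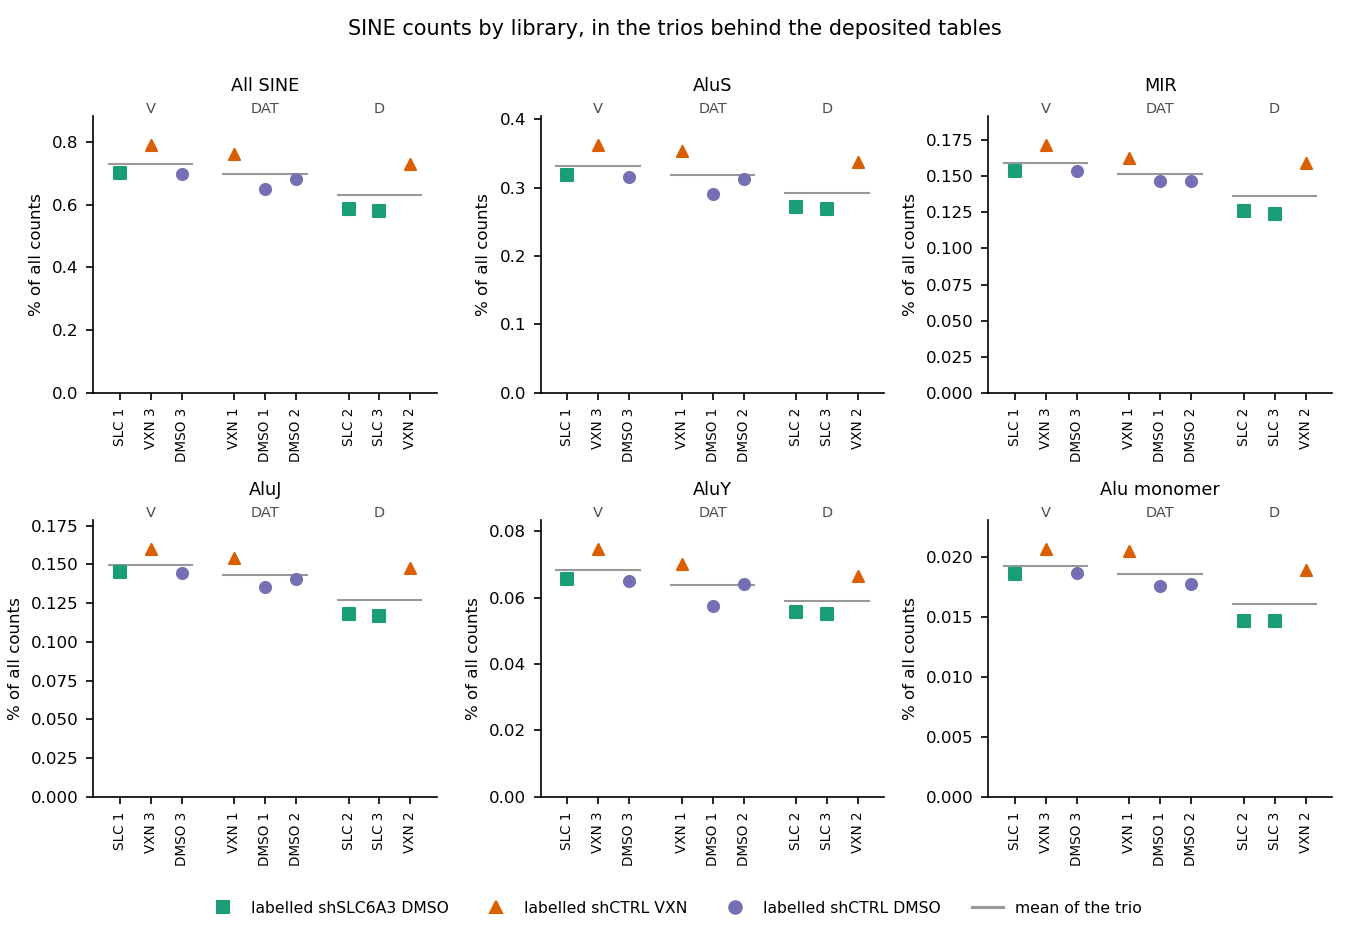
Percent of all counts in SINE rows and in 5 SINE groups, for the 9 libraries in the trios V, DAT and D; colour and shape give the label and grey lines the mean of a trio. In each panel the shCTRL VXN library (orange triangles) is the highest of its trio, as with 0.789%, 0.761% and 0.730% for all SINE rows.

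The make-up of the SINE counts hardly varied. Alu-family rows took 77.3% to 78.6% of SINE counts in the 9 libraries and MIR rows 21.4% to 22.6%. AluS took 44.8% to 46.4%, AluJ 20.1% to 20.9%, AluY 8.88% to 9.48% and the monomers 2.50% to 2.71%. The number of MIR counts per Alu count was 0.280 ± 0.00227 in V, 0.279 ± 0.0112 in DAT and 0.275 ± 0.00352 in D (SD, n = 3 each). Old and young SINE branches thus kept their proportions while their summed share of the library varied up to 1.36-fold. Most SINE rows therefore moved together, and counts of subfamilies are not counts of independent results. The largest single rows were MIRb with 8.47% of SINE counts over the 9 libraries, AluJb with 8.44%, AluSx with 7.66%, AluSx1 with 7.64% and AluY with 7.58%.

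The first deposited comparison sets the trio V against the trio D. In the authors' deposited table shCTRL V against shCTRL D, 16 of 57 SINE subfamilies were higher at an adjusted p below 0.05 (28.1%), beside 21.4% of all 24274 rows with an adjusted p. None was lower, beside 22.7% of all rows. The median log2 fold change of the 57 in the authors' deposited table was 0.19, beside -0.0016 over all rows tested, and 51 of 57 were above 0. For the other repeat classes the medians were 0.039 over 158 LINE rows, 0.057 over 524 LTR rows and 0.081 over 210 DNA transposon rows, as the authors' deposited table lists them. LINE rows were called in both directions, with 26 above and 10 below 0 as the authors' deposited table has them.

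By branch, the authors' deposited table called 3 of 4 AluJ, 3 of 17 AluS, 5 of 25 AluY, 2 of 4 monomers and 3 of 5 MIR subfamilies higher. The 3 AluJ rows were AluJb, AluJo and AluJr, and the 3 MIR rows were MIR1_Amn, MIR3 and MIRb. Most of these shifts were small: MIRb was at log2 0.27 (SE 0.09, adjusted p 0.00489) and AluJr at 0.28 (SE 0.08, adjusted p 0.00127) in the authors' deposited table. MIRb had 609.2, 682.7 and 612.1 CPM in the V libraries and 493.3, 483.3 and 601.5 CPM in the D libraries. AluJr had 439.0, 471.4 and 437.8 CPM in the V libraries and 346.5, 346.8 and 423.9 CPM in the D libraries. For both rows the trios did not overlap, with shCTRL VXN 2 the highest D library and shCTRL VXN 3 the highest V library. AluJb, another of the abundant old rows, had 594.0, 655.0 and 586.2 CPM in V and 487.5, 477.7 and 616.4 CPM in D, with log2 0.22 (SE 0.09, adjusted p 0.0415) in the authors' deposited table. Here the trios overlapped through shCTRL VXN 2, as they did for the row MIR, which had 439.2, 485.5 and 437.8 CPM in V and 364.0, 356.7 and 473.4 CPM in D and an adjusted p of 0.0791 in the authors' deposited table.

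Non-overlap of V above D held for 12 of 57 subfamilies in CPM, which is 21.1% beside 29.4% of all 20402 rows that passed the filter on low counts.

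The abundant AluS and AluY rows missed the threshold in the authors' deposited table, with AluSx1 at log2 0.21 (SE 0.10, adjusted p 0.064) and AluY at 0.19 (SE 0.10, adjusted p 0.0822). AluSx1 had 538.7, 613.3 and 534.1 CPM in the V libraries and 447.4, 446.1 and 561.1 CPM in the D libraries. AluY had 528.8, 601.7 and 524.9 CPM in the V libraries and 456.4, 453.2 and 543.4 CPM in the D libraries. In both cases shCTRL VXN 2, in the trio D, stood above 2 of the 3 V libraries. The same held for AluSx, with 521.9, 595.4 and 516.4 CPM in V and 456.0, 454.5 and 572.2 CPM in D. AluYm1, the next AluY row by count, had 20.5, 21.9 and 20.5 CPM in V and 17.2, 15.8 and 21.2 CPM in D, and the row Alu 6.70, 7.59 and 6.41 CPM in V and 5.33, 6.49 and 7.37 CPM in D. Both overlapped between the trios, and neither passed the test.

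AluYb8 stood out from its branch. It is one of the youngest human Alu subfamilies and is known for copies that have moved in recent human evolution. AluYb8 had 20.7, 25.6 and 20.6 CPM in the V libraries, 11.8, 9.78 and 11.0 CPM in the DAT libraries, and 8.72, 8.76 and 12.1 CPM in the D libraries. Every V library lay above every other library, and DAT and D overlapped. The authors' deposited table shCTRL V against shCTRL D gave it log2 1.17 (SE 0.14, adjusted p 1.54e-16), and the authors' deposited table shDAT D against shCTRL D gave 0.03 (SE 0.08, adjusted p 0.656). The V libraries were also higher than the DAT libraries in DESeq2, by log2 1.10 (SE 0.14, adjusted p 6.47e-14). These rest on 358 to 1217 counts per library.

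AluYk4, a rarer AluY subfamily, followed. It had 5.94, 6.45 and 6.46 CPM in the V libraries, 3.70, 3.10 and 3.61 CPM in the DAT libraries, and 3.27, 3.40 and 4.30 CPM in the D libraries. The V libraries again lay above all 6 others. Its log2 fold change in the authors' deposited table was 0.77 (SE 0.14, adjusted p 1.81e-07), and V against DAT gave 0.92 (SE 0.15, adjusted p 3.75e-09) in DESeq2. Across all 9 libraries 4 of 57 subfamilies had every V library above the other 6 (7.02%, beside 25.9% of all rows), namely AluYb8, AluYk4, AluYb9 and AluJr. AluYb9, the close relative of AluYb8, is rare: it had 1.16, 1.01 and 1.05 CPM in V and 0.614, 0.736 and 0.468 CPM in D, with log2 0.68 (SE 0.33, adjusted p 0.0307) in the authors' deposited table.

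AluYa5, the other AluY branch known for recent insertions, did not pass the test. It had 9.39, 9.58 and 8.26 CPM in the V libraries and 7.51, 7.89 and 9.13 CPM in the D libraries, and the authors' deposited table gave log2 0.16 (SE 0.11, adjusted p 0.261). Its levels in the trios overlapped. AluYb8 counts per AluYa5 count came to 2.46 ± 0.234 in V, 1.21 ± 0.0431 in DAT and 1.20 ± 0.11 in D (SD, n = 3 each). As a share of AluY counts, AluYb8 was 3.25% ± 0.152 in V, 1.70% ± 0.0158 in DAT and 1.66% ± 0.134 in D. With AluYb8 and AluYk4 left out, AluY rows were at 0.0655% ± 0.00506 of all counts in V and 0.0577% ± 0.0063 in D. A single transcribed copy and many copies of a subfamily cannot be told apart in these sums.

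**Figure D2:**
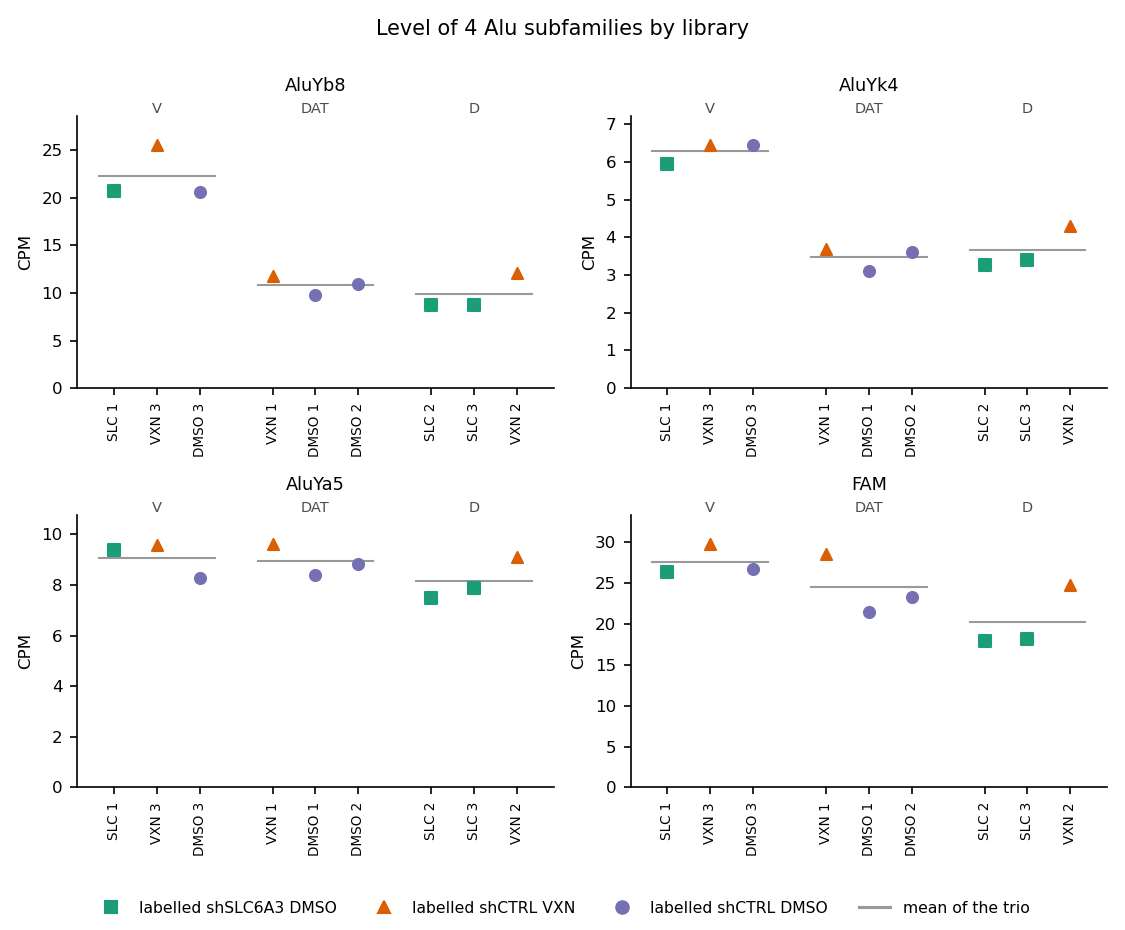
Levels in CPM of AluYb8, AluYk4, AluYa5 and FAM in the 9 libraries; colour and shape give the label and grey lines the mean of a trio. AluYb8 is at 20.6 to 25.6 CPM in V, 9.78 to 11.8 in DAT and 8.72 to 12.1 in D, while AluYa5 overlaps between the trios.

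Among the monomers, FAM had 26.3, 29.7 and 26.7 CPM in the V libraries and 17.9, 18.2 and 24.7 CPM in the D libraries. The trios did not overlap, and FAM was at log2 0.44 (SE 0.13, adjusted p 0.00226) in the authors' deposited table. FLAM_C, the most abundant monomer, had 80.7, 94.1 and 81.0 CPM in V and 64.2, 65.2 and 85.6 CPM in D, and its adjusted p of 0.0511 in the authors' deposited table missed the threshold. FLAM_A had 43.3, 46.9 and 42.4 CPM in V and 37.4, 36.5 and 46.2 CPM in D, with log2 0.15 (SE 0.09, adjusted p 0.146) in the authors' deposited table. In both FLAM rows shCTRL VXN 2 reached into the range of the V libraries.

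The lowest rows of at least 1 CPM in the authors' deposited table were AluYg6 at log2 -0.30 (SE 0.24, adjusted p 0.266), AluYh3a3 at -0.18 (SE 0.28, adjusted p 0.594) and AluYi6 at -0.14 (SE 0.16, adjusted p 0.492). AluYg6 had 0.732, 1.30 and 1.07 CPM in V and 1.33, 1.27 and 1.44 CPM in D. AluYi6 had 2.89, 3.70 and 3.01 CPM in V and 3.62, 3.47 and 3.67 CPM in D, and AluYh3a3 had 1.29, 1.51 and 0.831 CPM in V and 1.05, 1.30 and 2.02 CPM in D. These are rare subfamilies, the V and D libraries of AluYi6 and AluYh3a3 overlapped, and none passed the test. In AluYg6 only shCTRL VXN 3 reached into the range of the D libraries. The highest of all after AluYb8 was AluYh7 at log2 0.88 (SE 0.49, adjusted p 0.0323) in the authors' deposited table, at under 1 CPM in every library.

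The number of calls depended on the library set. Of the 16 subfamilies, 6 were called again with each of the 6 libraries left out in turn: AluJr, AluSq4, AluYb8, AluYk4, FAM and FRAM. Without shCTRL VXN 3 the count fell to 6, without either shSLC6A3 DMSO 2 or 3 to 9, and without shCTRL VXN 2 it was 37. With the shCTRL VXN label as a term in DESeq2, a fit chosen after the values were seen, 35 of 57 were higher and 0 lower (61.4%, beside 21.1% higher and 21.7% lower of all rows). The median log2 difference was 0.20 with and without that term. The 35 took in all 5 MIR rows and 16 of 17 AluS rows, and AluYb8 was at 1.20 (SE 0.09, adjusted p 1.3e-38).

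The second deposited comparison sets the trio DAT against the trio D. In the authors' deposited table shDAT D against shCTRL D, 0 of the 33 SINE subfamilies with an adjusted p were called, beside 1.0% of 10403 rows higher and 5.62% lower, and 24 subfamilies had no adjusted p. None had an unadjusted p below 0.05 in the authors' deposited table, and edgeR on the same libraries also called 0. The median log2 of the 57 was 0.031 in the authors' deposited table, with a range of -0.0536 to 0.0982. Those fold changes are shrunken towards 0. Without shrinkage, DESeq2 on the same trios gave a median of 0.088 for DAT over D, with a range of -0.61 to 0.41. Its median for V over D was 0.20. The highest was FLAM_C at 0.10 (SE 0.10, adjusted p 0.235) in the authors' deposited table. FLAM_C had 94.2, 79.2 and 80.2 CPM in DAT and 64.2, 65.2 and 85.6 CPM in D, so the trios overlapped through shCTRL VXN 2.

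Other abundant rows gave the same picture. AluJb had 649.3, 565.3 and 585.4 CPM in DAT against 487.5, 477.7 and 616.4 CPM in D, and AluJo had 374.2, 328.0 and 335.8 CPM in DAT against 282.9, 277.4 and 352.7 CPM in D. MIRb had 629.3, 557.4 and 560.2 CPM in DAT, and AluSx1 582.2, 478.4 and 520.7 CPM, all inside or above the range of the D libraries given for them. Every DAT library of these rows lay above shSLC6A3 DMSO 2 and 3, and at least 1 lay below shCTRL VXN 2. The lowest rows of at least 1 CPM were AluYk4, AluYe5 and AmnSINE1, which the authors' deposited table put at log2 -0.04, -0.02 and -0.02 with no adjusted p. AluYe5 had 4.36, 3.10 and 3.30 CPM in DAT and 3.45, 3.60 and 3.85 CPM in D. AmnSINE1, a SINE shared by amniotes, had 4.13, 3.70 and 4.51 CPM in DAT and 3.94, 3.60 and 5.07 CPM in D. Both overlapped between the trios.

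Here too a library decided the count. Without shCTRL VXN 2, 14 of 57 subfamilies were higher in DAT than in D, beside 13.8% of all rows higher and 21.1% lower. These included all 4 AluJ rows, 4 of 5 MIR rows and 3 of 4 monomers. With the shCTRL VXN label as a term, DESeq2 called 5 higher (8.77% of the 57, beside 5.10% of all rows higher and 8.91% lower), namely AluJb, AluJo, FAM, FLAM_C and MIRc, and edgeR called 0. AluYb8 was not among either set. AluYf1 alone had every DAT library above every D library (1.75% of 57, beside 9.18% of all rows).

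The deposited comparisons share the trio D, so the difference between them was tested as V against DAT. DESeq2 called 6 of 57 subfamilies higher in V and 0 lower (10.5%, beside 20.4% of all rows higher and 21.2% lower). The 6 were AluJr, AluSq, AluSq4, AluYb8, AluYe6 and AluYk4. Of these, AluYb8 and AluYk4 were called again with each of the 6 libraries left out in turn. The count ran from 2 to 12 over those fits, was 2 without shCTRL VXN 3 or shCTRL DMSO 1, 3 without shCTRL DMSO 2, and 12 without shCTRL VXN 1. It was 18 with the shCTRL VXN label as a term, 31.6% of the 57 beside 21.2% of all rows higher and 21.9% lower.

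**Figure D3:**
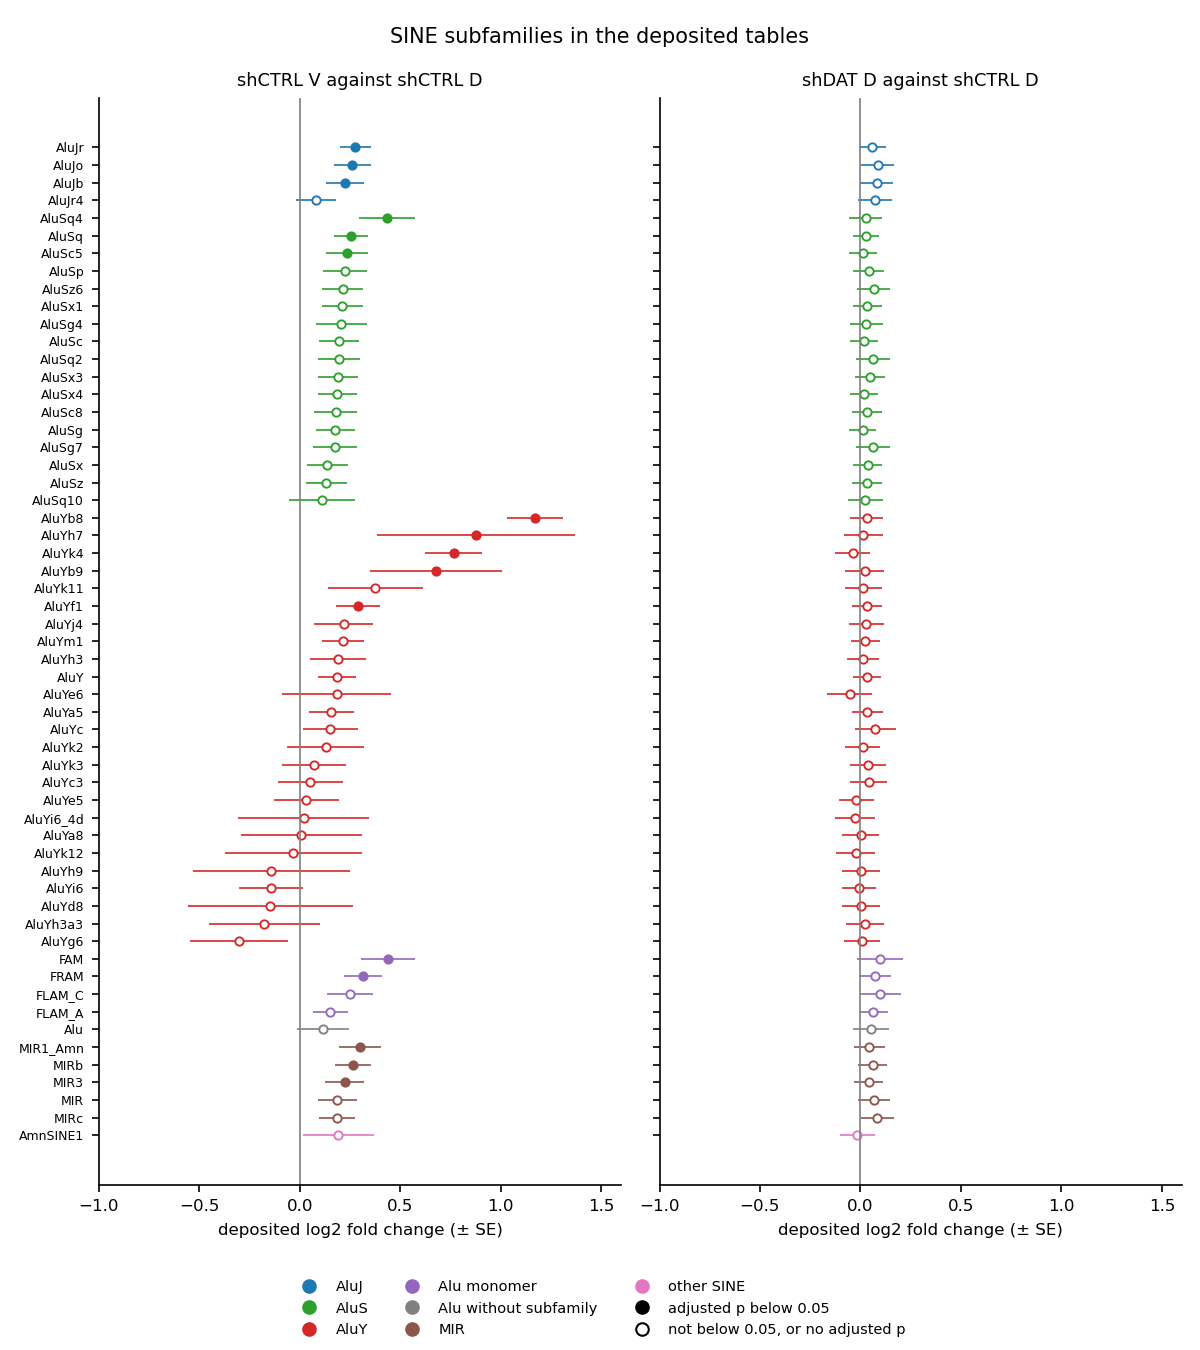
Log2 fold change (± SE) of all 57 SINE subfamilies in the authors' deposited tables, by SINE group; filled points have an adjusted p below 0.05. In the left panel (shCTRL V against shCTRL D) 16 points are filled and AluYb8 is farthest right at 1.17, and in the right panel (shDAT D against shCTRL D) none is filled.

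Taken by their labels, the shSLC6A3 DMSO libraries showed no SINE call against shCTRL DMSO. edgeR called 0 of 57 higher or lower, beside 0% of 20402 rows in each direction, with 1 of 57 at an unadjusted p below 0.05, and DESeq2 also called 0. The median log2 difference was -0.07 and became -0.0053 with the trio as a term. Only the trio V holds libraries of both labels, 1 of each. The value with that term thus rests on shSLC6A3 DMSO 1 and shCTRL DMSO 3, the closest pair of all, and on links through shCTRL VXN. AluYb8 had 20.7, 8.72 and 8.76 CPM in shSLC6A3 DMSO 1 to 3 and 9.78, 11.0 and 20.6 CPM in shCTRL DMSO 1 to 3. The high library of each label is the one that belongs to the trio V. By label the row was at log2 -0.08 (SE 0.50, adjusted p 0.999) in edgeR. All 3 shSLC6A3 DMSO libraries lay above all 3 shCTRL DMSO libraries in 2 of 57 subfamilies, 3.51% beside 2.81% of all rows.

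The shCTRL VXN libraries were higher than shCTRL DMSO in most SINE rows without any passing the adjusted test. edgeR called 0 of 57, beside 0% of 20402 rows higher and 0.0098% lower, with 3 of 57 at an unadjusted p below 0.05, and DESeq2 called 0. The log2 differences were above 0 for 53 of 57, with a median of 0.17, beside 0.0041 over all rows. All 3 shCTRL VXN libraries lay above all 3 shCTRL DMSO libraries in 31 of 57 subfamilies, which is 54.4% beside 3.06% of all rows. In 29 of 57 the shCTRL VXN libraries lay above all 6 others, 50.9% beside 1.93% of all rows. By branch, non-overlap with shCTRL DMSO held for 3 of 4 AluJ, 15 of 17 AluS, 8 of 25 AluY, 2 of 4 monomers and 3 of 5 MIR subfamilies. SINE rows moved largely together, so such counts of rows are not independent results.

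Within the trios the same libraries stood highest. The shCTRL VXN library was the highest of its trio in all 3 trios for 40 of 57 subfamilies (70.2%, beside 10.7% of all rows) and the lowest in all 3 for 0 (beside 11.9% of all rows). These 40 took in all 4 AluJ, all 17 AluS and all 5 MIR rows, with 11 of 25 AluY rows and 3 of 4 monomers. Since the SINE branches kept their proportions, these 40 rows are not 40 separate results. Among other repeats it held for 7 of 154 LINE rows, 57 of 466 LTR rows and 57 of 202 DNA transposon rows. The SINE share of shCTRL VXN was 1.13 times the mean of the other libraries in V, 1.14 times in DAT and 1.25 times in D. For LINE rows those ratios were 0.927, 0.949 and 1.09, and for LTR rows 1.16, 0.870 and 0.734. DNA transposon rows were above 1 in every trio like the SINE rows, at 1.08, 1.07 and 1.26.

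MIRb, as an example, had 682.7 CPM in shCTRL VXN 3 beside 609.2 and 612.1 in its trio, 629.3 CPM in shCTRL VXN 1 beside 557.4 and 560.2, and 601.5 CPM in shCTRL VXN 2 beside 493.3 and 483.3. With the trio as a term in edgeR, a fit chosen after the values were seen, MIRb was at log2 0.19 (SE 0.04, adjusted p 0.287) and AluSx at 0.24 (SE 0.05, adjusted p 0.252). In that fit 54 of 57 subfamilies were above 0 with a median of 0.21, 36 had an unadjusted p below 0.05 and 0 an adjusted one. DESeq2 with the same term gave 33 and 0. edgeR called 0.0245% of all rows higher and 0.0196% lower there. The label shCTRL VXN and the separate run of sample numbers cannot be told apart, since both mark the same 3 libraries.

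**Figure D4:**
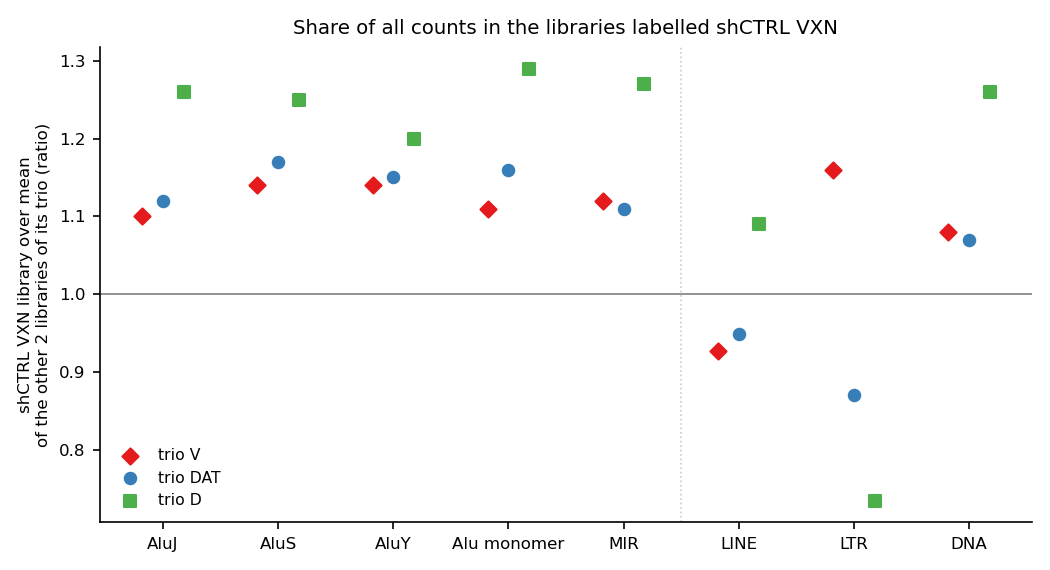
Share of all counts of each repeat group in the shCTRL VXN library, divided by the mean of the other 2 libraries of its trio, for the trios V, DAT and D; the line marks a ratio of 1. The 5 SINE groups lie between 1.10 and 1.29 in every trio, DNA transposon rows lie between 1.07 and 1.26, and LINE and LTR rows lie on both sides of 1.

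Of 8 long noncoding RNAs, 2 had the shCTRL VXN library highest in every trio, as the SINE share did, beside 10.7% of all rows. They were NEAT1 and MALAT1, described here after their values were seen. NEAT1, the scaffold of paraspeckles, which hold transcripts with paired inverted Alu repeats, had 198.5, 216.9 and 197.0 CPM in V, 227.0, 165.1 and 173.2 CPM in DAT, and 103.3, 103.2 and 172.0 CPM in D. MALAT1, a transcript of nuclear speckles, had 92.6, 142.8 and 89.7 CPM in V, 112.4, 101.7 and 105.0 CPM in DAT, and 39.3, 37.6 and 99.5 CPM in D. For both, the shCTRL VXN library was the highest of its trio and shSLC6A3 DMSO 2 and 3 the lowest of all. MALAT1 missed the threshold in the authors' deposited table, at log2 0.67 (adjusted p 0.0669). The list of 8 long noncoding RNAs summed to 701.2 to 747.8 CPM in V, 560.1 to 633.3 CPM in DAT and 407.5 to 566.3 CPM in D. Where in the cell each of these RNAs lies was not measured, so the sum is not a measure of nuclear RNA. In the authors' deposited table shCTRL V against shCTRL D, 4 of 8 were called higher and 2 called lower, beside 21.4% and 22.7% of all rows. The lower ones were MIR17HG at log2 -0.91 (SE 0.21, adjusted p 1.16e-05) and PVT1 at -0.29 (SE 0.07, adjusted p 9.44e-05) in the authors' deposited table. The higher ones in the authors' deposited table were NEAT1 at 0.67 (SE 0.17, adjusted p 9.99e-05), FTX at log2 1.70 (SE 0.13, adjusted p 2.17e-39), OIP5-AS1 at 0.63 (SE 0.06, adjusted p 2.96e-28) and TUG1 at 0.65 (SE 0.08, adjusted p 1.09e-14). In the authors' deposited table shDAT D against shCTRL D 1 of the 6 with an adjusted p was higher, beside 1.0% of all rows. It was NEAT1 at 0.42 (SE 0.19, adjusted p 0.0386) in the authors' deposited table. Whether more nuclear or unspliced RNA in a library bears on its SINE counts was not tested.

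Several small RNAs made by polymerase III were highest in shCTRL VXN 3, though not all of that list. RN7SL1 encodes the signal recognition particle RNA, from which Alu descends. It had 2.67, 30.5 and 0.973 CPM in V, 1.62, 1.18 and 1.23 CPM in DAT, and 1.29, 1.26 and 3.18 CPM in D. The value of 30.5 belongs to shCTRL VXN 3, which also had 17.2 CPM of RN7SL2, 6.01 CPM of RN7SK and 6.14 CPM of RPPH1, against at most 1.53, 0.991 and 0.448 CPM in the other 8 libraries. VTRNA1-3, a vault RNA, was not high there, with 0.108, 0.273 and 0.166 CPM in V, 0.331, 0.255 and 0.695 CPM in DAT, and 0.0996, 0.113 and 0.449 CPM in D. BCYRN1, a noncoding RNA gene of Alu descent, had 1.66, 3.40 and 1.40 CPM in V, 6.94, 2.92 and 1.52 CPM in DAT, and 2.26, 2.51 and 5.41 CPM in D, and was again highest in the shCTRL VXN library of each trio. Of the 10 RNAs listed, 3 had the shCTRL VXN library highest in every trio (BCYRN1, RN7SL1 and RN7SL2), beside 10.7% of all rows. The authors' deposited table shCTRL V against shCTRL D called higher 2 of the 5 with an adjusted p, beside 21.4% of all rows. These were RN7SL1 at log2 0.70 (SE 1.26, adjusted p 0.0445) and RN7SK at 1.45 (SE 1.0, adjusted p 0.0183) in the authors' deposited table. Without shCTRL VXN 3 the log2 ratio of the SINE share of V over D was 0.15, beside 0.21 with it. RN7SL1 and Alu rows can share reads, and the part of such sharing in the SINE counts was not tested.

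**Figure D5:**
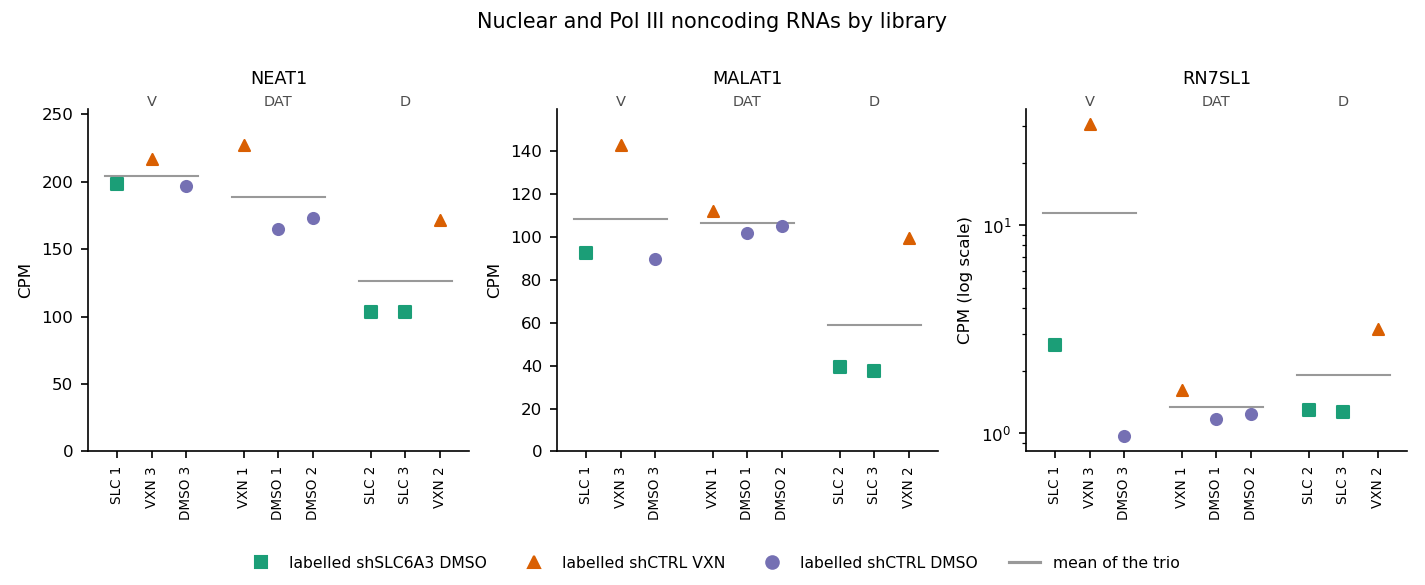
CPM of NEAT1, MALAT1 and RN7SL1 (log scale) in the 9 libraries; colour and shape give the label and grey lines the mean of a trio. NEAT1 and MALAT1 are lowest in shSLC6A3 DMSO 2 and 3 (103.3 and 103.2 CPM, 39.3 and 37.6 CPM), and RN7SL1 is at 30.5 CPM in shCTRL VXN 3.

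Genes of polymerase III transcription were called lower more often than higher in V. Of 25 subunits and factors, 5 were called higher and 12 called lower by the authors' deposited table shCTRL V against shCTRL D, which called 21.4% of all rows higher and 22.7% lower. The share called higher is thus near that of all rows, and the median log2 in the authors' deposited table was -0.17 beside -0.0016 over all rows. POLR3G, the alternative polymerase III subunit found in stem and tumour cells, had 40.4, 33.1 and 40.2 CPM in V, 89.8, 90.3 and 94.0 CPM in DAT and 99.3, 98.4 and 80.1 CPM in D, and was at log2 -1.27 (SE 0.12, adjusted p 1.32e-25) in the authors' deposited table. POLR3K, a small core subunit, was at -1.35 (SE 0.15, adjusted p 6.67e-20), and GTF3C5, a subunit of the promoter-binding factor TFIIIC, at -0.61 (SE 0.06, adjusted p 2.53e-26) in the authors' deposited table. GTF3C4, another TFIIIC subunit, was at -0.44 (SE 0.06, adjusted p 2.25e-12) in the authors' deposited table. The 5 higher genes were POLR3D, POLR3C, CRCP, BRF2 and MAF1, the last a repressor of polymerase III, and BRF2 was highest at 0.66 (SE 0.12, adjusted p 2.94e-07) in the authors' deposited table. For DAT against D, the authors' deposited table shDAT D against shCTRL D called 5.62% of all rows lower, and 1 of these 25, BRF1 at -0.28 (SE 0.12, adjusted p 0.0397), with 0 of 25 higher.

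Genes whose proteins bind, edit or process Alu RNA were not higher in V. Of 19, 11 were called lower and 0 called higher by the authors' deposited table shCTRL V against shCTRL D, beside 22.7% and 21.4% of all rows, with a median log2 of -0.24. ILF2, a subunit of a nuclear RNA binding complex, was at -0.71 (SE 0.10, adjusted p 1.93e-13) and HNRNPC, which keeps Alu exons out of mRNA, at -0.51 (SE 0.08, adjusted p 8.38e-11) in the authors' deposited table. SRP9, a part of the Alu domain of the signal recognition particle, was at -0.43 (SE 0.09, adjusted p 1.27e-06) in the authors' deposited table. HNRNPC had 581.3, 502.1 and 588.6 CPM in V, 835.0, 910.9 and 902.3 CPM in DAT and 808.8, 802.1 and 802.3 CPM in D, so V lay below both other trios. ADAR, the main editor of paired Alu repeats, had an adjusted p of 0.555 at log2 0.05 (SE 0.05) in the authors' deposited table. For DAT against D the authors' deposited table had 0 of 19 called in either direction.

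Among the markers of other cell types, only COL1A1 of the fibroblast list was well above trace level. COL1A1, COL1A2 and VIM summed to 33.4 to 47.2 CPM in V, 34.0 to 38.4 CPM in DAT and 19.8 to 38.6 CPM in D, nearly all of it COL1A1, and COL1A2 did not exceed 0.0210 CPM. COL1A1 itself was lowest in shSLC6A3 DMSO 2 and 3, at 18.7 and 19.95 CPM, the libraries with the lowest SINE share. In bulk RNA fewer cells of a type and less RNA per cell cannot be told apart, and the part of these genes in the SINE differences was not tested.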

How the data were processed

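RNA of HCT116 cells was made into 9 libraries with a TruSeq RNA kit and sequenced on an Illumina NextSeq, per the labels' protocols. The submitters' processing notes name fastp 0.20.1, FastQC 0.11.9, STAR, DESeq2 1.34.0 and the build GRCh38. Which program counted genes and repeats, with which annotation, on which strand and with what treatment of reads that map to several copies, is not given in the sources used here. Raw counts deposited by the authors are given per gene and per repeat subfamily. Each of the authors' tables holds shrunken log2 fold changes from DESeq2 as deposited. DESeq2 also gave the p-value and adjusted p-value of a row, as deposited. The base mean deposited by the authors is a signal of normalised counts averaged over all 9 libraries, and was used to order rows only.

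CPM and shares were computed from the counts, with each library's sum of all rows as total (30251364 to 60215785 counts). Labelled groups were compared in edgeR 4.0.16 (quasi-likelihood, TMM, filter on low counts that left 20402 rows) and DESeq2 1.42.0, in R 4.3.3. The libraries behind the deposited tables were compared in DESeq2. Adjustment was by Benjamini-Hochberg, in edgeR over all rows fitted. DESeq2 adjusted over the rows its own filter kept in each fit, such as 26469 for V against D and 14048 for DAT against D. An adjusted p below 0.05 was called. Intervals of counting error are not given, since repeat reads are not independent molecules. Every pair of libraries differed by more than counting noise (lowest chi-square per degree of freedom 1.34), so none was merged, though 1 pair in each trio lay far closer than the rest. The edgeR and DESeq2 fits by label were tested on simulated counts with planted changes. Those counts held no difference between trios, so they cannot show how well label fits find changes in these libraries.

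Named subfamilies are the pair with the highest mean count in each group, the 3 highest and 3 lowest in each deposited table with at least 1 CPM, and any called against its group. Others were named after their values were seen, AluYa5, AluYb9, AluYh7 and AluYf1 among them, as were MALAT1, VTRNA1-3, PVT1, MIR17HG, CDH1, KRT19, ADAR, BRF1, BRF2, MAF1, COL1A1 and the small RNAs of shCTRL VXN 3. From each gene list up to 4 genes with the smallest adjusted p were named. Sequences and 1 gene of the lists are not reported here. The members and gene lists were chosen with earlier results of these data known. Deviations from the labelled group means correlated between same-numbered shCTRL VXN and shCTRL DMSO libraries (r 0.843, 0.878 and 0.955). Between shSLC6A3 DMSO and shCTRL DMSO they gave r -0.818, 0.816 and -0.828. The trio V holds number 3 of shCTRL VXN and shCTRL DMSO but number 1 of shSLC6A3 DMSO. These r values thus carry the trios and cannot show a pairing by number. By counts, shCTRL DMSO 2 was closer to shCTRL VXN 1 (chi-square per degree of freedom 7.34) than to shCTRL VXN 2 (9.87).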

Additional observations from a re-analysis of the deposited data

How the results depend on the processing

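All labelled counts stayed at 0 of 57 SINE subfamilies under other scalings, no filter on low counts, DESeq2, each library left out in turn, the replicate block (0 in both comparisons) and, added after the data were seen, the trio as a term. The main label fits in edgeR called at most 0.0098% of all rows in either direction, so these counts of 0 say little about stability. For shCTRL V against shCTRL D the count was 16, edgeR gave 17 and library totals 13, a 1.5-fold minimum left 4, and leaving out 1 library gave 6 to 37. Added settings gave 35 with the shCTRL VXN label as a term in DESeq2, 37 in edgeR, 35 without the 3 shCTRL VXN libraries, and 23 without shCTRL VXN 2 and 3. For shDAT D against shCTRL D the count was 0, and 0 to 14 with 1 library left out, 5 with the label as a term in DESeq2, 0 in edgeR, 14 without the 3 shCTRL VXN libraries and 15 without shCTRL VXN 2 and 3. For V against DAT the count was 6, and 3 by edgeR on library totals, 2 to 12 with 1 library left out, 18 and 21 with the label as a term in DESeq2 and edgeR, and 27 without the 3 shCTRL VXN libraries. The log2 ratio of the SINE share of V over D was 0.21, and -0.027 as a share of repeat counts. With 1 library left out it was 0.15 to 0.32, and that of DAT over D, 0.14 with all libraries, was 0.07 to 0.26. As a share of repeat counts, DAT over D was at 0.104. The cause of these shifts was not tested. Of 234 values of named subfamilies under alternatives, 194 kept their side of the threshold, 33 passed it, and 7 no longer did. AluYh3a3, which was not called, was at log2 -0.18 in V against D and at 0.026 without shCTRL VXN 2. Fits with a term use fewer residual degrees of freedom, and where 1 library of a trio is left out the other 2 set its spread. Rows under 1 CPM, all AluY, rest on few counts.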
